A study of Mus musculus with 6 samples.

Results

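The genes described here carry the leukaemia inhibitory factor (LIF) signal in mouse embryonic stem cells: the receptor chains Lifr and Il6st, the kinase Jak1, the transcription factor Stat3, its feedback inhibitor Socs3, and the target genes Bcl3, Pim1, Pim3 and Tfcp2l1. They were taken as every array probe that the platform annotation assigns to 1 of these 9 genes, which made 9 of 21893 named genes and 13 of 55681 probes: 3 for Lifr, 2 each for Stat3 and Tfcp2l1, and 1 for each other gene. Undifferentiated cells of the 46c line (ESC), from strain 129/Ola with GFP placed at the neural gene Sox1, were set against cells of that line sorted on GFP after 5 days of neural differentiation with NB27 and Neuro2 supplements (NPC). Each group had 3 arrays, numbered 1 to 3 and described as biological replicates. The title of ESC replicate 3 spells the line's name with an extra digit, while its source label gives 46c as for the other ESC samples. All samples came from a single reporter line, and neither the GFP gate that was kept nor the use of LIF in the culture medium is given in the sources used here.

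LIF is a cytokine of the interleukin-6 family that keeps mouse ES cells in self-renewal in culture. It binds a pair of receptor chains, LIFR and gp130 (the product of Il6st), which activate JAK1. JAK1 phosphorylates STAT3, which enters the nucleus and switches on its target genes. Among them, Socs3 encodes an inhibitor that binds gp130 and JAK kinases and so closes a feedback loop, and Tfcp2l1 and Klf4 encode factors of the naive pluripotent state.

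Stat3 and most of its targets had lower transcript levels in NPC, while the receptor chains and the kinase differed by less than 1 on the log2 scale. Stat3, Socs3, Bcl3, Pim3 and Tfcp2l1 fell, with log2 changes of -2.16 to -8.37. Lifr, Il6st and Pim1, at -0.69, -0.84 and -2.50, did not pass the limma test, and passed it with the replicate number as a block. Jak1 passed in neither form of the test. Of the 9 genes, 5 fell and 0 rose by the limma test (0 higher also at an unadjusted p under 0.05), where 9.54% of all 21893 genes were lower and 11.1% higher. With the replicate number as a block 8 of 9 fell, where 16.7% of all genes were lower and 18.9% higher. The groups did not overlap, NPC below ESC, for 6 of 9 genes (17.4% of all genes) and 8 of 13 probes (14.4% of all probes).

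Values are log2 signals after quantile normalisation, so a difference of 1 is a 2-fold change. Differences are NPC minus ESC ± standard error with n = 3 arrays per group, and a gene counts as changed where limma's Benjamini-Hochberg adjusted p over all genes was under 0.05. The median was 5.32 in every array, and precision is limited by the small number of arrays. Signals of different probes depend on the probes and were not compared with each other. Most markers went with the labels: 8 of 10 ES cell markers fell and 8 of 10 neural progenitor markers rose, the latter with Sox1, whose reporter served for the sort. The ES cell markers Tdgf1 and Nanog differed by -1.31 and 0.59 without passing (limma adjusted p = 0.126 and 0.258). Nanog had means of 6.93 in ESC and 7.52 in NPC. The neural progenitor markers Pax6 and Notch1 differed by 1.81 and 0.57 without passing (limma adjusted p = 0.357 and 0.796). The mean signal of the ES cell markers was 12.61 to 12.84 in the ESC arrays and 6.58 to 6.74 in the NPC arrays, and that of the neural progenitor markers was 6.57 to 6.995 and 11.74 to 12.42. Of 8 neuron markers, 4 rose, with a mean signal of 7.93 to 8.68 in ESC and 10.48 to 10.79 in NPC. The mean signals of the glial, fibroblast, endoderm, mesoderm and blood markers lay between 4.03 and 6.76 in every array, and of their 7, 8, 8, 7 and 7 genes 1, 2, 1, 0 and 0 rose (1, 4, 1, 0 and 0 at an unadjusted p under 0.05 by limma) and 0, 1, 1, 2 and 1 fell (1, 1, 3, 2 and 2 at an unadjusted p under 0.05). These list means hide large changes of single genes. From ESC to NPC the mean of the endoderm marker Foxa2 rose from 4.54 to 10.23 and that of the glial marker Mbp from 7.40 to 9.73. That of the blood marker Cd34 fell from 8.28 to 2.64 (limma adjusted p = 0.000273, 0.00646 and 0.00234). The part of the cells of any of these marker lists in the changes below was not tested. In such bulk samples fewer cells of a type and less RNA per cell cannot be told apart.

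**Figure D1:**
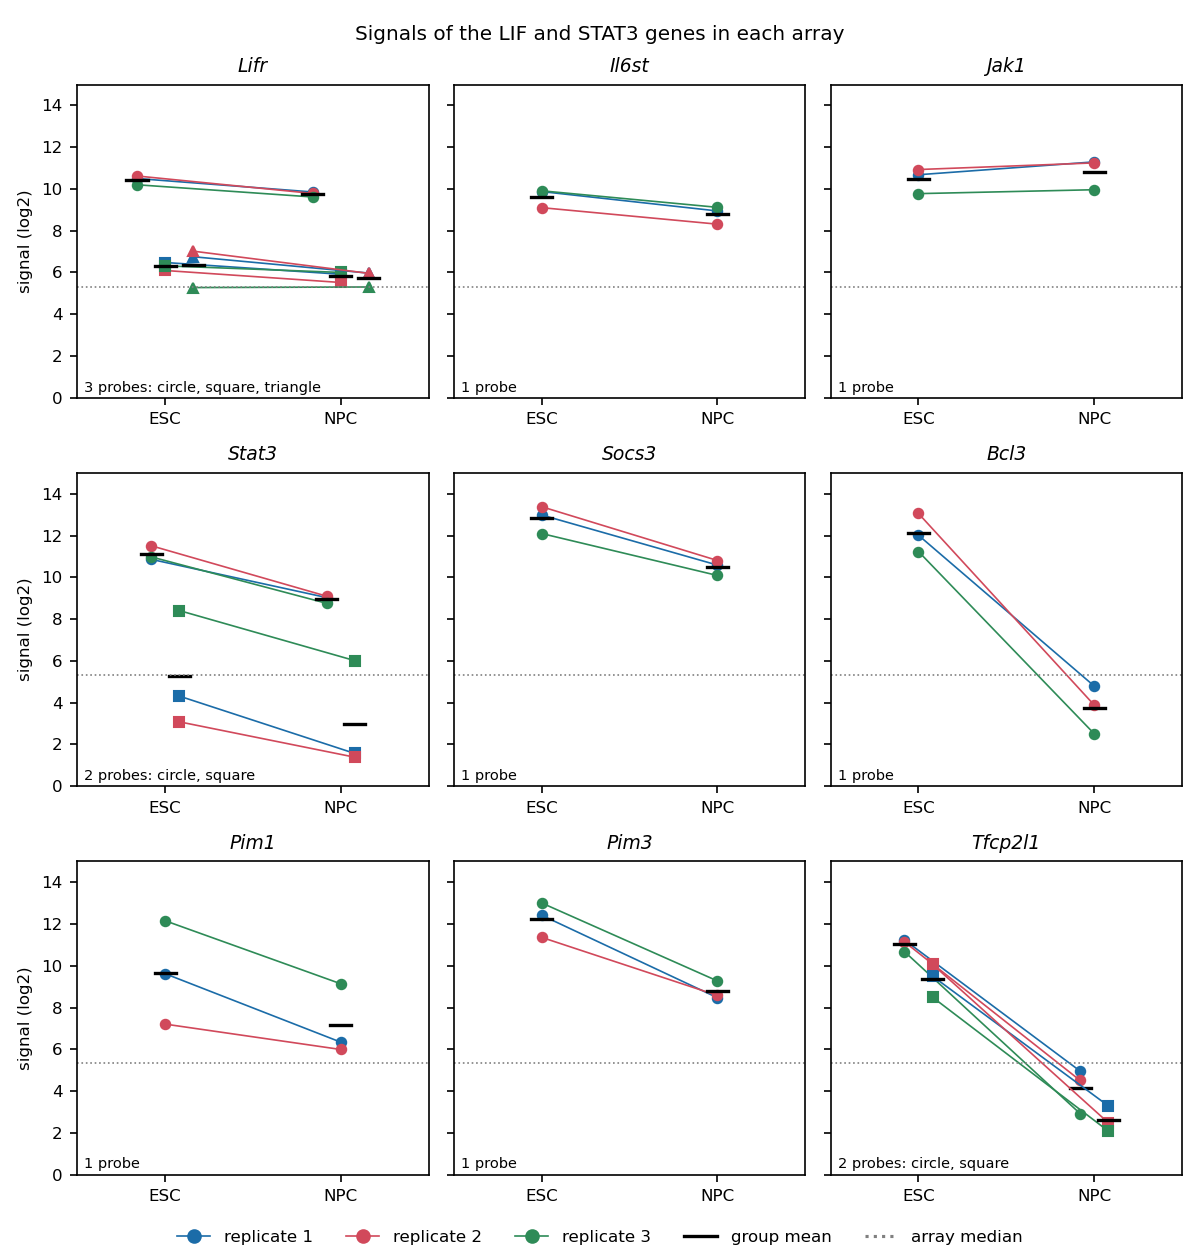
Log2 signal (vertical axes) of each probe of the 9 genes in the 3 ESC and 3 NPC arrays. Lines join arrays with the same replicate number, marker shapes separate the probes of a gene, short bars are group means and the dotted line is the array median of 5.32. Il6st, Jak1 and the brightest Lifr probe change by less than 1 unit within each replicate number, Bcl3 and Tfcp2l1 drop below the median in all 3 NPC arrays, and the lines of Pim1 and of the second Stat3 probe lie far apart but run down together.

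Lifr, the chain that binds LIF itself, read 10.50, 10.62 and 10.20 in ESC replicates 1 to 3 and 9.85, 9.79 and 9.61 in NPC replicates 1 to 3 by its brightest probe (A_55_P2159259). All 3 NPC arrays lay below all 3 ESC arrays, within a span of about 1 unit. The difference was -0.69 ± 0.20, with a 95% confidence interval of -1.18 to -0.20. It did not pass (adjusted p = 0.0617), but did with the replicate block (0.0249) and with a floor of 6 under all values (0.0482). The second Lifr probe read 6.48, 6.10 and 6.32 in ESC and 5.92, 5.52 and 6.003 in NPC, and the third, annotated to another RefSeq transcript, read 6.75, 7.02 and 5.28 in ESC and 5.97, 5.96 and 5.31 in NPC. The groups did not overlap by the second probe but did by the third, where replicate 3 was low in both groups. They differed by -0.48 ± 0.22 and -0.61 ± 0.52 and passed in neither test over all probes (adjusted p = 0.280 and 0.598, and 0.106 and 0.208 with the block).

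Il6st, which encodes gp130, the signal-transducing chain shared by most receptors of the cytokine family, read 9.87, 9.10 and 9.91 in ESC and 8.95, 8.31 and 9.12 in NPC. The groups touched, since NPC replicate 3 lay just above ESC replicate 2, but within each replicate number NPC was lower, by 0.93, 0.79 and 0.79. The difference was -0.84 ± 0.34 (95% confidence interval -1.66 to -0.0099), with an adjusted p of 0.155, and 0.0133 with the replicate block. On a linear scale the brightest Lifr probe and the Il6st probe were 1.61-fold and 1.79-fold lower in NPC.

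Jak1, the tyrosine kinase bound to gp130, read 10.68, 10.93 and 9.78 in ESC and 11.29, 11.25 and 9.96 in NPC. NPC was higher within each replicate number, by 0.61, 0.32 and 0.19, while replicate 3 was the lowest array of both groups and the groups overlapped. The difference of 0.37 ± 0.49 did not pass (adjusted p = 0.685, and 0.143 with the block). Its 95% confidence interval was -0.83 to 1.57, and -0.052 to 0.80 with the block, so a rise of that size cannot be told from no change with these arrays.

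Stat3, the transcription factor that carries the signal to the nucleus, read 10.86, 11.51 and 10.98 in ESC and 9.03, 9.10 and 8.75 in NPC by the probe A_51_P201480. The groups did not overlap, with all NPC arrays more than 1 unit below all ESC arrays. Stat3 fell by 2.16 ± 0.24, or 4.47-fold (adjusted p = 0.00224). Its second probe, A_55_P1991219, which is annotated to another RefSeq transcript of the gene, read 4.32, 3.08 and 8.41 in ESC and 1.57, 1.39 and 6.01 in NPC. There replicate 3 stood far above the other two in both groups, and 4 of the 6 values lay under the array median. Within each replicate number this probe was lower in NPC by 2.75, 1.70 and 2.40. Its difference of -2.28 ± 1.87 did not pass over all probes without the block (adjusted p = 0.581) and did with it (0.0122). With the mean of both probes as the value of the gene, Stat3 differed by -2.22 and no longer passed (adjusted p = 0.146).

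Socs3, the feedback inhibitor, read 12.98, 13.38 and 12.10 in ESC and 10.59, 10.81 and 10.09 in NPC. The groups did not overlap. Socs3 fell by 2.33 ± 0.39, or 5.02-fold (adjusted p = 0.00952), and stayed above the array median in all 6 arrays. In both groups replicate 2 was the highest array and replicate 3 the lowest.

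Bcl3, an atypical member of the inhibitor-of-NF-κB family that acts in the nucleus as a cofactor of p50 and p52, read 12.02, 13.06 and 11.24 in ESC and 4.80, 3.89 and 2.51 in NPC. It had the largest change of the 9 genes, at -8.37 ± 0.72 (adjusted p = 0.000834). All 3 NPC values lay under the array median, so the size of the fold depends on weak signals. With a floor of 6 under all values, the difference was -6.10 (adjusted p = 0.00472).

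Pim3, a serine/threonine kinase of the PIM family, which acts in cell survival and growth, read 12.41, 11.36 and 13.00 in ESC and 8.47, 8.58 and 9.27 in NPC. The groups did not overlap. It fell by 3.49 ± 0.48, or 11.2-fold (adjusted p = 0.00442). Pim1, its better known relative and a STAT3 target in blood cells too, read 9.62, 7.21 and 12.15 in ESC and 6.34, 5.99 and 9.14 in NPC. The groups overlapped widely, since NPC replicate 3 lay above ESC replicate 2, and the arrays spanned 4.95 units in ESC and 3.15 in NPC. Within each replicate number Pim1 was lower in NPC, by 3.28, 1.22 and 3.02. Its difference of -2.50 ± 1.44 did not pass (adjusted p = 0.317, and 0.0205 with the replicate block), and ran from -1.26 without ESC replicate 3 to -3.73 without ESC replicate 2.

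Tfcp2l1, a CP2-family transcription factor whose forced expression can sustain mouse ES cells without LIF, read 11.24, 11.15 and 10.68 in ESC and 4.96, 4.51 and 2.92 in NPC by the brighter probe. NPC lay far below ESC in every array. It fell by 6.89 ± 0.55 (adjusted p = 0.000675). Its other probe read 9.50, 10.07 and 8.49 in ESC and 3.29, 2.49 and 2.09 in NPC, with a change of -6.73 ± 0.51 (adjusted p over all probes = 0.00134). Both probes thus gave nearly the same change, and all 6 NPC values lay under the array median. With the floor of 6, the brighter probe differed by -5.02 (adjusted p = 0.000537).

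**Figure D2:**
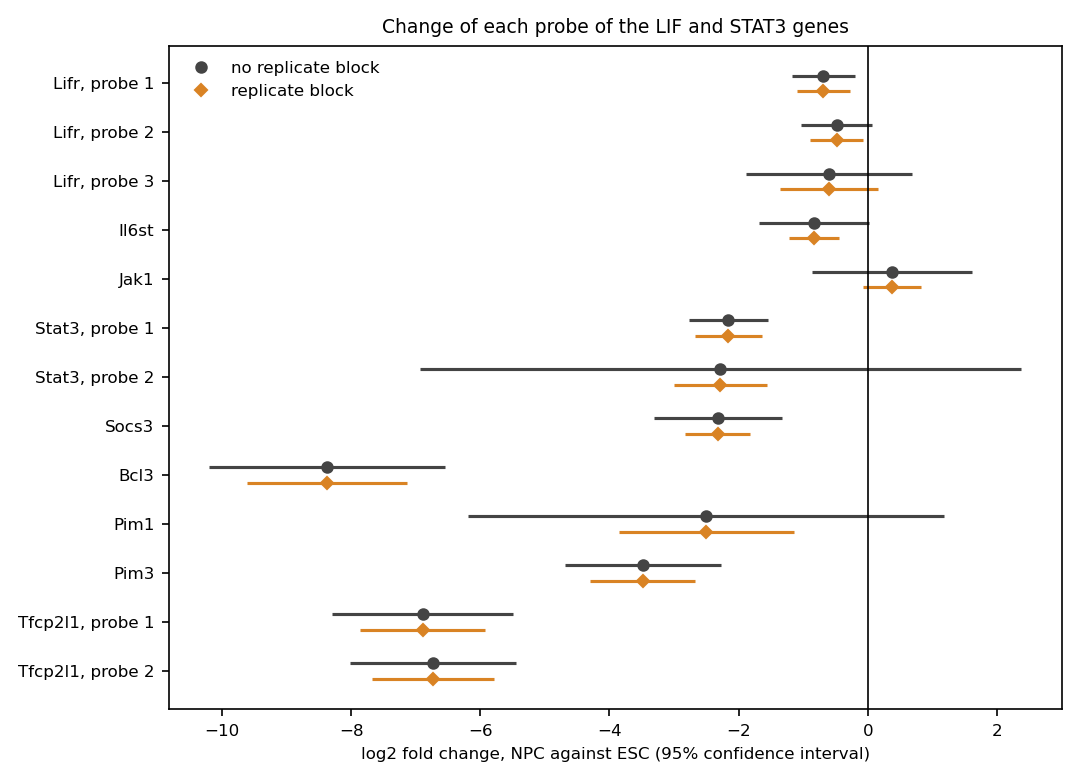
Log2 fold change of NPC against ESC (horizontal axis) for each of the 13 probes, with 95% confidence intervals from limma over all probes, without (circles) and with (diamonds) the replicate number as a block. The points of 12 probes lie left of 0 and that of Jak1 lies to the right, and the intervals of Pim1, Il6st, the second Lifr probe and the second Stat3 probe include 0 only without the block.

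By probe, 6 of 13 fell and 0 rose over all 55681 probes (0 higher at an unadjusted p under 0.05), against 5.43% of all probes that were lower and 6.08% that were higher. With the block 10 of 13 fell, against 9.5% of all probes, and 0 rose, against 10.7%. The 3 that did not were the probe of Jak1 and the dimmer probes of Lifr. Of the 9 genes, 8 were lower in NPC in all 3 same-numbered pairs (32.1% of all genes), and so were 11 of the 13 probes (30.2% of all probes). The exceptions were Jak1 and the third Lifr probe, where replicate 3 was higher in NPC by 0.028. Pim1 and the second Stat3 probe had the widest spread within a group, and in both groups replicate 3 was their highest array and replicate 2 their lowest.

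The promoter windows of Socs3, Bcl3 and Tfcp2l1 are shown because Socs3 is the classical STAT3 feedback gene and Bcl3 and Tfcp2l1 had the largest changes. RefSeq windows of the build GRCm38.p6, from 250 bases before to 50 bases after an annotated start, were found for all 9 genes (11 windows), and are printed 5′ to 3′ on the gene's strand. They were searched on both strands for the STAT palindrome TTCNNNGAA and for the TATA box TATAAA, which do not overlap there, and matches are in capitals.
Socs3, chr11:117969317-117969616, minus strand: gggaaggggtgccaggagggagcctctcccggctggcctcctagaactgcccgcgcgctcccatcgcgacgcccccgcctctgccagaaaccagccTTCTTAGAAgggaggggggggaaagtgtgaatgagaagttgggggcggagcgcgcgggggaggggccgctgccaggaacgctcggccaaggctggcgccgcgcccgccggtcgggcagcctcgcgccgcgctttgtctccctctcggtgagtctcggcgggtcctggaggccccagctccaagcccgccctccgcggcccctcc
Bcl3, chr7:19822706-19823005, minus strand: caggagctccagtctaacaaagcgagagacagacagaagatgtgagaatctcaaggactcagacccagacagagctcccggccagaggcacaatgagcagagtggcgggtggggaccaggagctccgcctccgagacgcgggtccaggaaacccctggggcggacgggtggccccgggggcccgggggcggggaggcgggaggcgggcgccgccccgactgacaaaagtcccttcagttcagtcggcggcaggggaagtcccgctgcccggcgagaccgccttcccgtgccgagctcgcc
Tfcp2l1, chr1:118627695-118627994, plus strand: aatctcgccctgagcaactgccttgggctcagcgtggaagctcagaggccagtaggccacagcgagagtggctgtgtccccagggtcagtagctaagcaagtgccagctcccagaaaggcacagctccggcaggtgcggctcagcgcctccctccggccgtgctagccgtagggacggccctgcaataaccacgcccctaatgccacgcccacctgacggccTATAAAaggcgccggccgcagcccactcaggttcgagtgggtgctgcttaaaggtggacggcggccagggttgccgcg

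The STAT palindrome occurred in 1 of the 11 windows, that of Socs3, as TTCTTAGAA starting 154 bases before the annotated start. It occurred in 8.3% of all 32841 windows. The TATA box occurred in 1 of the 11, that of Tfcp2l1, starting 28 bases before the start, and in 13.6% of all windows. The windows of Lifr, Il6st, Jak1, Stat3, Bcl3, Pim1 and Pim3 held neither. These matches describe letters in a short window, and sites farther away were not analysed here.

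Of 8 other JAK kinases and STAT factors, 3 fell and 1 rose (3 and 2 with the block), and of 11 paralogs of the targets, 5 fell and 1 rose (7 and 2 with the block). Of all genes 9.54% were lower and 11.1% higher (16.7% and 18.9% with the block), so the 1 that rose in each list is near that share. Among the JAK kinases, Jak2 rose by 2.85 ± 0.42 (adjusted p = 0.00611) from 7.58 to 8.94 in the ESC arrays to 10.71 to 11.62 in the NPC arrays. Jak3 fell by 1.74 ± 0.29 (adjusted p = 0.00975, which became 0.0514 without ESC replicate 1), and Tyk2 differed by -1.26 ± 1.08 without passing. Among the STAT factors, Stat6, which signals from interleukin-4, fell by 4.25 ± 0.26 (adjusted p = 0.000276), and Stat4, which signals from interleukin-12, fell by 4.91 ± 0.51 (adjusted p = 0.00155). The 2 dimmer Stat6 probes differed by -2.16 and 0.25 and did not pass over all probes, and by the mean of its 3 probes Stat6 differed by -2.05 (adjusted p = 0.0213). With the floor of 6, Stat4 differed by -2.76. Stat5b, a close relative that cytokines also activate, read 12.65 ± 0.82 in ESC and 12.92 ± 0.67 in NPC (mean ± SD, n = 3 per group) and did not pass by its brightest probe (limma adjusted p = 0.802). Its dimmer probe was higher in NPC by 2.79 ± 0.46 and passed over all probes (adjusted p = 0.0160). Stat2, which signals from type I interferon, was at 0.98 ± 0.41 (adjusted p = 0.177 without and 0.0106 with the block), and Stat5a by -0.043 ± 0.31.

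Pim2, the third PIM kinase, read 8.92, 6.97 and 10.80 in ESC and 4.79, 4.49 and 7.63 in NPC. As in Pim1, replicate 3 was its highest array and replicate 2 its lowest in both groups. Its difference was -3.26 ± 1.24 (adjusted p = 0.135 without and 0.00508 with the block). Of the CP2 family, Tfcp2 rose by 1.56 ± 0.19 (adjusted p = 0.00286), opposite to Tfcp2l1, but its other probe differed by -0.33 and the mean of both by 0.61 (adjusted p = 0.108). Ubp1, the third of that family, differed by -0.77 ± 1.26 without passing. The grainyhead-like genes, epithelial factors more distantly related to Tfcp2l1, all fell, with log2 changes of -6.23 ± 0.48 for Grhl2, -4.02 ± 0.28 for Grhl3 and -3.55 ± 0.49 for Grhl1 (adjusted p = 0.000594, 0.000405 and 0.00482). The dimmer Grhl2 probe differed by -0.97 and did not pass, and the mean of both by -3.60 (adjusted p = 0.00367). Of the inhibitors of NF-κB related to Bcl3, Nfkbia fell by 1.04 ± 0.17 (adjusted p = 0.00823). Nfkbid fell by 2.05 ± 0.45, a call that ended without ESC replicate 1 and without NPC replicates 1, 2 or 3 (adjusted p up to 0.0867) and with the floor of 6 (0.0772). Nfkbib and Nfkbie, at -1.08 ± 0.41 and 0.83 ± 0.37, did not pass without the block (adjusted p = 0.134 and 0.194) and did with it (0.0103 and 0.0442). Nfkbiz differed by -0.086 ± 0.26. Nfkb2, which encodes the partner p52 of Bcl3, read 8.44 ± 0.75 and 8.17 ± 0.51 (mean ± SD, n = 3 per group) and did not pass (limma adjusted p = 0.773).

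**Figure D3:**
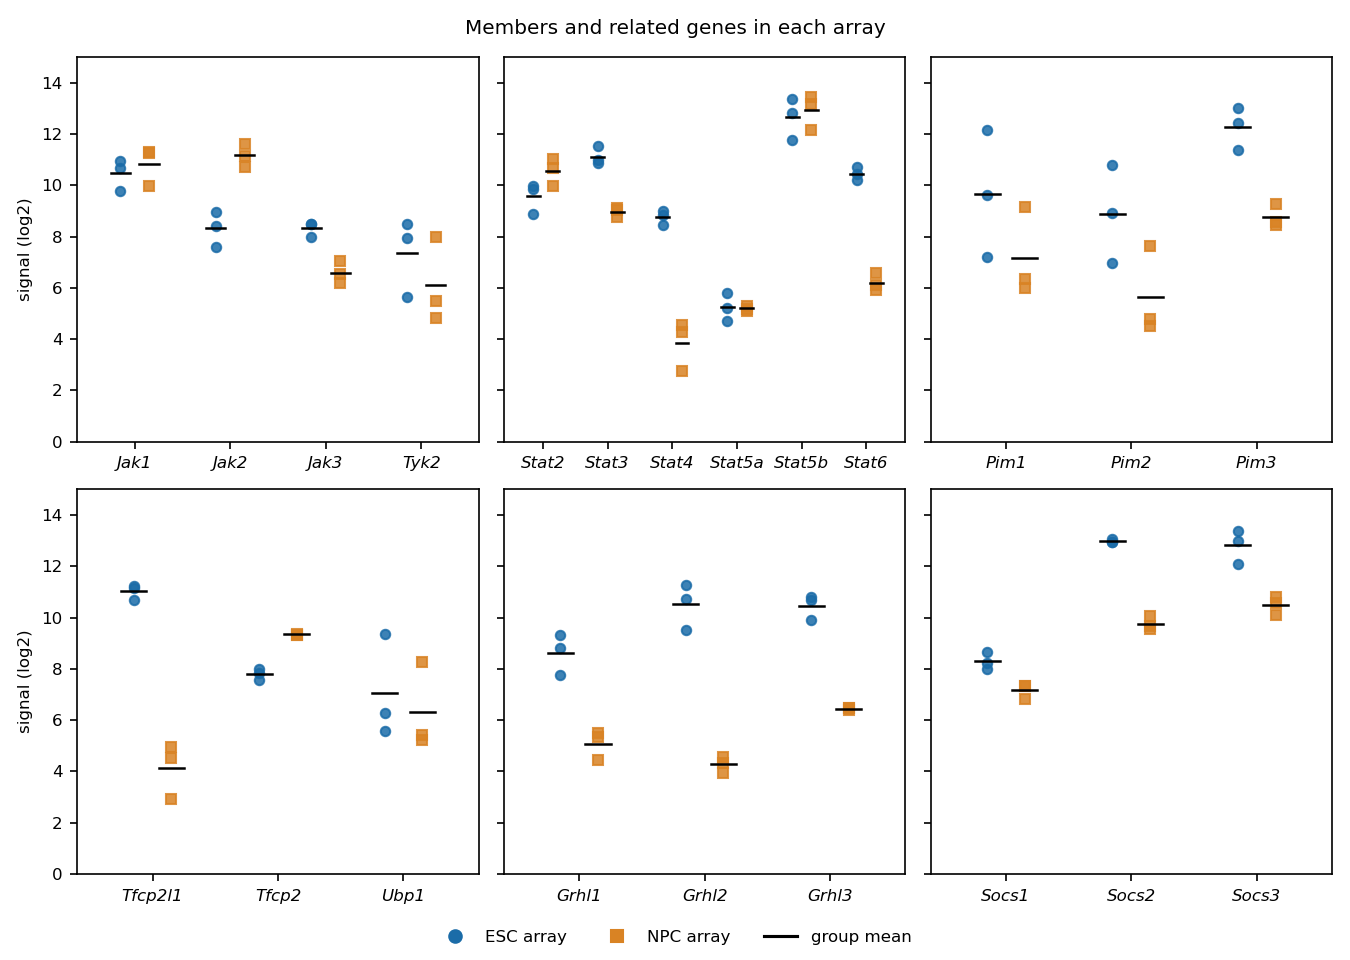
Log2 signal (vertical axes) of the 9 genes' relatives by family in each ESC (circles) and NPC (squares) array, with group means as bars and 1 probe, the brightest, per gene. Levels of different genes are not comparable. Jak2 and Tfcp2 are higher in all NPC arrays, the 3 PIM kinase means are lower in NPC, and Socs1, Socs2 and Socs3 are lower in all NPC arrays.

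Among the other inhibitors of JAK-STAT signalling, 4 of 15 measured genes fell and 0 rose by limma (2 higher at an unadjusted p under 0.05), where 9.54% and 11.1% of all genes were lower and higher. With the block 4 fell and 4 rose, the same count in each direction, beside 16.7% lower and 18.9% higher of all genes. Socs2, a cytokine-induced inhibitor of the same family as Socs3, fell by 3.23 ± 0.20 (adjusted p = 0.000298), and its 3 other probes differed by -3.31 to -3.96. The phosphatase gene Ptpn6 fell by 2.73 ± 0.34 (adjusted p = 0.00319), and Pias2, of the family of protein inhibitors of STATs, fell by 1.75 ± 0.28 (adjusted p = 0.00774). Socs1 was the fourth, and fell by 1.13 ± 0.27 (adjusted p = 0.0333), a call that ended in 5 of 6 fits that left out an array (all but ESC replicate 3, adjusted p up to 0.108) and with the floor of 6 (0.0642).

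Of the cytokines and receptors of the interleukin-6 family, 2 of 12 measured genes rose and 1 fell, beside 11.1% and 9.54% of all genes. Cntfr, which encodes the chain that binds ciliary neurotrophic factor and joins LIFR and gp130 in its receptor, read 7.52, 8.58 and 6.15 in ESC and 10.99, 11.39 and 9.23 in NPC. All NPC arrays lay above all ESC arrays. Cntfr rose by 3.12 ± 0.81 (adjusted p = 0.0450), but the call ended without ESC replicates 1 or 3, without NPC replicates 1 or 2 (adjusted p up to 0.152) and with the floor of 6 (0.131). With the replicate block its adjusted p was 0.00130, and its other probe was higher by 3.21 ± 0.33 and passed over all probes (adjusted p = 0.00335). Cntf itself rose by 1.01 ± 0.25 (adjusted p = 0.0390), a call that ended in 5 of 6 fits that left out an array (all but NPC replicate 3, adjusted p up to 0.141), with the floor of 6 (0.0652), with a trend in the variance (0.0539) and with the mean of its probes (0.0564). Ctf1, which encodes cardiotrophin 1, fell by 0.76 ± 0.20 (adjusted p = 0.0441), a call that ended in 6 of 6 such fits (without ESC or NPC replicates 1, 2 or 3, adjusted p 0.0756 to 0.136) and with a trend in the variance (0.0726).

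Of the adaptors and kinases of the PI3K and ERK branches, Akt1 rose by 1.73 ± 0.46 and Shc1 fell by 1.44 ± 0.37, 1 gene in each direction of 9 measured, a share near the 9.54% lower and 11.1% higher of all genes. With the block 3 fell and 3 rose, beside 16.7% lower and 18.9% higher of all genes. The calls of Akt1 and Shc1 without the block were both close to the threshold (limma adjusted p = 0.0471 and 0.0410). That of Akt1 ended without ESC replicates 1 or 3 and without NPC replicates 1 or 2 (adjusted p up to 0.154). That of Shc1 ended in 5 of 6 fits that left out an array (all but ESC replicate 3, adjusted p up to 0.130), and both ended with the floor of 6 (0.122 and 0.0999).

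Of the other STAT3 targets in ES cells, 8 of 12 measured genes fell and 0 rose by limma (1 higher at an unadjusted p under 0.05). Of all genes 9.54% were lower and 11.1% higher. With the block 10 of these 12 fell and 1 rose, where 16.7% of all genes were lower and 18.9% higher. The 1 that rose was Fos, at 2.99 ± 0.94 (limma adjusted p = 0.0800 without and 0.0251 with the block), with all NPC arrays above all ESC arrays. The Krüppel-like factor genes Klf5 and Klf4 fell by 6.60 ± 0.33 and 4.75 ± 0.68 (adjusted p = 0.000153 and 0.00532), and the growth regulator Myc fell by 3.87 ± 0.49 (adjusted p = 0.00326). The list had a median change of -1.64, against 0.013 for all genes, -2.33 for the 9 genes and -0.30 for the cytokines and receptors. Over all these lists together, the 9 genes not counted, 22 of 68 measured genes fell and 5 rose, beside 9.54% lower and 11.1% higher of all genes. With the block 29 fell and 14 rose, beside 16.7% and 18.9%, so the share that rose was near or below that of all genes. Their median change was -0.54.

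**Figure D4:**
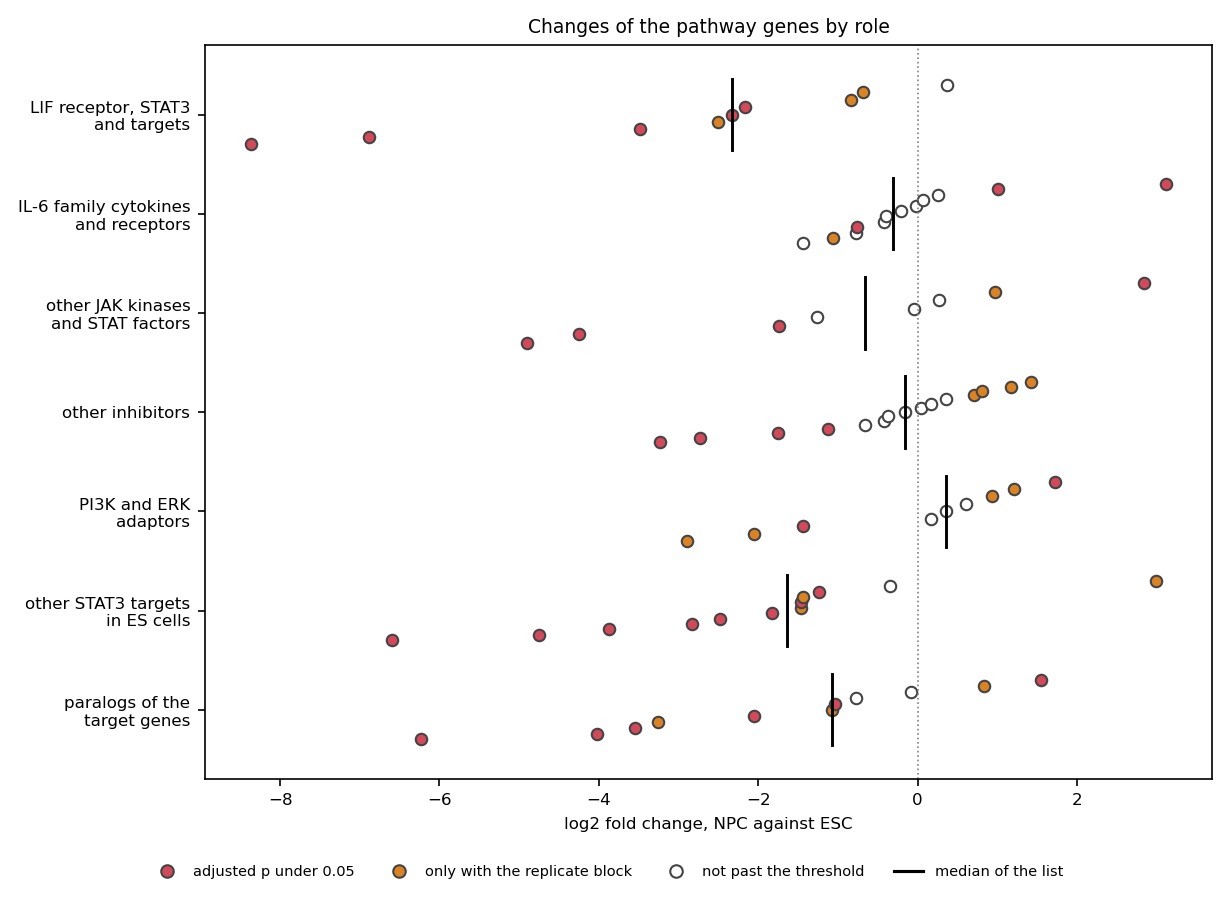
Log2 fold change of NPC against ESC (horizontal axis) for each measured gene, grouped by role in rows, with red points past the threshold, orange points past it only with the replicate block, and a bar at each list's median. The points of the 9 genes and of the other STAT3 targets lie mostly left of 0, with medians of -2.33 and -1.64, while those of the cytokines and receptors, inhibitors and adaptors lie on both sides.

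The genes whose pattern over the 6 arrays was most like that of 4 members were picked by Pearson's r among the 5477 genes with an SD of at least 1 over the arrays. For Lifr they were Nr3c1, Efcab15 and Caps2, and for Stat3 they were AF067061, Myo1g and Anxa4. For Socs3 they were Stac2, Tcp11 and Als2cl, and for Tfcp2l1 they were Zc3hav1, Dppa5a and Palm3. All 12 had an r of 0.997 to 0.999 over 6 arrays and were lower in NPC. With 2 groups of 3 arrays the difference between the groups sets most of such an r.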

How the data were processed

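RNA from 3 ESC and 3 NPC samples was amplified once and hybridised with 1 dye (Cy3) to Agilent arrays, per the labels. The authors deposited log2 values for 55681 probes, and base 2 was inferred from their span (1.03 to 16.18). Every column held the same sorted values (largest difference 0), which quantile normalisation produces and which hides a shift of most transcripts in 1 direction. The submitters' processing notes name limma without a version. For background correction and detection calls, a method was not given in the sources used here.

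The platform annotation gave 30626 probes 1 symbol and 0 probes several, and 25055 are unnamed here. Each of 21893 genes was represented by its probe with the highest mean. The groups were compared with lmFit and eBayes of limma 3.58.1 under R 4.3.3 (two-sided), over all genes and, for single probes, over all 55681 probes. The fits were tested on simulated data. Without the block, 0%, 14.9% and 71.2% of genes simulated with changes of size 1, 2 and 4 were called, and 0% of those without a change. With the block these shares were 0%, 35.8% and 68.2%, and 0.0092%. In those data only 67, 67 and 66 of 21893 genes carried a change of size 1, 2 and 4, and 21693 carried none. The arrays themselves gave 2089 genes called lower and 2423 called higher without the block. The shares called with that many changed genes were not tested. Alternatives were the replicate block, the mean of a gene's probes, a floor of 6, dim genes left out, an eBayes trend, named probes alone, each array left out, and, chosen after seeing the data, both arrays of 1 number left out. The labels state no pairing. Same-numbered arrays deviated together from their group means across genes (r = 0.189, 0.721 and 0.768). The replicate block takes the titles' numbers to pair the samples, and the fits without the block ignore this pairing. However, r was higher (0.402) between ESC replicate 2 and NPC replicate 1 than between the arrays numbered 1. Calls made only with the block depend on this pairing, which was taken from these same values. No deposited column was left unused.

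The members, lists and tests were chosen with earlier results of these data known. Of 75 pathway genes listed, 68 were measured and the rest are not analysed here. Named were all members, the 3 called genes with the largest change in each list (the brightest where none was called), the members' relatives, and the 3 genes most like each of Lifr, Stat3, Socs3 and Tfcp2l1. Socs1, Fos and the markers Tdgf1, Nanog, Pax6, Notch1, Foxa2, Mbp and Cd34 were named after their values were seen.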

Additional observations from a re-analysis of the deposited data

How the results depend on the processing

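Of the 9 genes, 5 fell in each of 6 fits that left out an array (5 to 5) and 0 rose (0 to 0). 8 fell with the replicate block, and 2 with both arrays numbered 1 left out, where only 4 arrays remain. In that fit Bcl3 and Tfcp2l1 passed and Stat3, Socs3 and Pim3 did not. Of the 13 probes, 4 to 6 fell and 0 to 0 rose in the fits without an array, 10 fell with the replicate block and 0 without both arrays numbered 1 (6 at an unadjusted p under 0.05 by limma). Of the 68 pathway genes, 16 to 20 fell and 2 to 6 rose without an array, 5 and 0 without both arrays numbered 1 (22 and 2 at an unadjusted p under 0.05), and 11 and 2 without both numbered 2. With the replicate block 14 rose, by the mean of a gene's probes 3, and with the floor of 6 only 2. Over all genes, 2089 were lower and 2423 higher, and 3660 and 4147 with the block, 1297 and 1527 with the floor, 409 and 361 without both arrays numbered 1, and 1052 and 1156 without both numbered 2. At the probe level the call of Socs3 ended in 5 of 6 fits without an array, all but that without ESC replicate 3 (limma adjusted p up to 0.0888). That of Pim3 ended in 2 of 6 (up to 0.0524). At the gene level both held in the fits without an array, Socs3 narrowly (adjusted p up to 0.0490, and 0.0269 for Pim3). Over all 14 alternatives, the gene-level call of Socs3 was lost in 2 (adjusted p up to 0.174) and that of Pim3 in 1 (up to 0.126). No member changed sign under any alternative run. Among uncalled relatives, signs changed for Stat5a (-0.31 to 0.24), Stat5b (-0.17 to 0.65), Ubp1 (-1.76 to 0.37), Nfkb2 (-0.69 to 0.029) and Nfkbiz (-0.29 to 0.062) in the fits without an array, and Stat5a gave 0.25 without both arrays numbered 2. The causes were not tested. Differences from signals under the array median are uncertain in size, since no detection calls were used. Other background corrections and scan batches could not be tried on these values, and p-values cover the spread between samples of a single line.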
